A study of Mus musculus with 2 samples.

Results

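Clu, Sprr1a, Sfn, Foxq1, Itgb6, Tgfb1, Tgfb2, Hbegf, Cdkn1a and Tgm2 are 10 genes of epithelial injury, repair and matrix activation, and they were followed here across the cell classes of digested lung from SP-C I73T mice. All 10 were found by symbol among the 32285 genes counted in both libraries. They were selected on their measured levels in these same 2 libraries, with earlier results known, so the differences between the libraries below are descriptions. The libraries are 1 titled injured and 1 titled control, both single-cell 3′ libraries (10x chemistry, unique molecular identifier or UMI counts) from whole lung of C57BL/6 mice that carry an I73T change in surfactant protein C (gene Sftpc), which alveolar type 2 (AT2) cells make.

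The injured library stands for lung 14 days after injury and the control library for steady state, as the series' design puts it. The protocol text is the same for both libraries and describes 1 gavage of tamoxifen at 175 mg/kg in corn oil, which cuts out a neomycin cassette and so increases the mutant protein's expression. Tags and titles disagree: the injured library carries the treatment tag untreated, and the control library carries the tag tamoxifen treated. Groups follow the titles throughout. Both libraries carry the mutation, so no lung without it is part of the comparison, and all lungs were lavaged and perfused before digestion, which removes cells of the airspaces and blood. Age and the number of animals behind each library were not stated. With 1 library a group no difference has a replicate check, and library, animal, batch and condition cannot be told apart.

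As background, AT2 cells are the progenitors of the thin alveolar type 1 (AT1) cells, and after injury they pass through a transitional state marked by keratin 8 and stress genes. Clu encodes clusterin, a secreted chaperone found in injured and regenerating epithelia. Itgb6 encodes the epithelial integrin subunit that pairs with the Itgav product to release active TGF-beta from its latent form, and Tgfb1 and Tgfb2 encode TGF-beta ligands. Hbegf encodes a membrane-anchored ligand of the EGF receptor, Cdkn1a the cell cycle inhibitor p21, Sfn the epithelial 14-3-3 protein sigma, Sprr1a a precursor protein of the cornified envelope, Tgm2 the tissue transglutaminase that crosslinks proteins, and Foxq1 a forkhead transcription factor.

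Per the GENCODE M21 annotation of GRCm38, Clu lies on chromosome 14 (65968483 to 65981547, plus strand), Sprr1a on chromosome 3 (92483952 to 92485895, minus strand) and Sfn on chromosome 4 (133600556 to 133602168, minus strand). Itgb6 lies on chromosome 2 (60598292 to 60722643, minus strand), Cdkn1a on chromosome 17 (29090976 to 29100727, plus strand) and Foxq1 on chromosome 13 (31556134 to 31560976, plus strand). Tgfb1 lies on chromosome 7 (25687002 to 25705077, plus strand), Tgfb2 on chromosome 1 (186622792 to 186705989, minus strand) and Tgm2 on chromosome 2 (158116402 to 158146436, minus strand). Cdkn1a, Tgfb2, Tgm2 and Foxq1 overlap other annotated genes, all on the opposite strand. RefSeq promoter entries (GRCm38.p6) were held for 6 of the 10 genes, and the 250 bases before the start site are printed for 2 of them, Sprr1a because it was counted in the injured library alone and Cdkn1a because it is the classical target of p53. Sprr1a is read from chr3:92485882-92486131 on the minus strand and Cdkn1a from chr17:29090729-29090978 on the plus strand, with matches in capitals.
Sprr1a: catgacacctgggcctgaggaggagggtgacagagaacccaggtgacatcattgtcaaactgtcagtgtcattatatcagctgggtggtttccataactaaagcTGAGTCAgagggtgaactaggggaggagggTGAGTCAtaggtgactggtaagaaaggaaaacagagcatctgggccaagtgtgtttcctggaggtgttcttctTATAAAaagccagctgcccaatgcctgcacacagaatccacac
Cdkn1a: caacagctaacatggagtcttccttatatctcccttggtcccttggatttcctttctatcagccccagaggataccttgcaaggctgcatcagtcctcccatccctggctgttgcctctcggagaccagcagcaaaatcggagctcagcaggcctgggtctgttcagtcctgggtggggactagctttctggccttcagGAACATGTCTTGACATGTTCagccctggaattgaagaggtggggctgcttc
In Sprr1a the capitals mark 2 matches to the AP-1 motif TGANTCA, which start 146 and 116 bases before the start site, and a TATA box (TATAAA) 43 bases before it. In Cdkn1a they mark 1 match to the p53 response element with at most 1 mismatch in its 20 letters, 51 bases before this start site, a motif added after the sequence was seen. Both strands were searched, no capitals overlap, and the TEAD core GGAATG was found in neither sequence. Of 32851 promoters of the same length, 6.75% held the AP-1 motif, 12.4% the TATA box, 12.6% the TEAD core and 0.0761% the p53 element. Of the other entries, Tgfb2 held a TATA box, and Itgb6, Sfn and Tgfb1 held none of these motifs. Another Cdkn1a entry, chr17:29093519-29093768 on the plus strand, also held none, so the Cdkn1a entry printed is the one with a match. Which Cdkn1a start site these cells used was not tested. A match is a run of letters and not a measured binding site.

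The injured library held 2302 cells with 19864574 UMIs after filtering, and the control library 2298 cells with 15981354 UMIs, with medians of 3277.5 and 4483.5 UMIs a cell. Of 5376 barcodes 1 was shared by both. Cells were clustered without the 10 genes and clusters were called "-like" after marker lists. Levels are CPM, that is counts summed over the cells of a class and scaled to the UMI total of those cells, with exact Poisson 95% intervals, and ratios carry exact conditional 95% intervals. All these intervals cover counting error within these 2 libraries only. A gene was counted as higher or lower when it had at least 10 counts over both libraries and its level differed at least 1.5-fold, and a count of 0 was bounded at 3 counts. Where the level in the other library lay under that bound, the log2 ratio was set to 0. A ratio given as "at least" stands at that bound, and its exact interval reaches lower.

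Over all cells, 6 of the 10 genes were at least 1.5-fold higher in the injured library and 0 at least 1.5-fold lower, where 22% of 15772 genes tested were higher and 16.9% lower. The 6 were Clu, Sprr1a, Sfn, Foxq1, Itgb6 and Hbegf. Clu had 11355 counts (572 CPM) in the injured library and 409 counts (25.6 CPM) in the control library; the ratio was 22.3 (20.2 to 24.7). Sprr1a had 520 counts in the injured library and 0 in the control library. That makes it at least 139-fold higher at the bound of 3 counts, and the exact interval starts at 113. Itgb6 had 646 and 17 counts, a ratio of 30.6 (18.9 to 52.8).
The epithelial regulators Sfn and Foxq1 and the ligand gene Hbegf differed less over all cells. Sfn had 1429 counts in the injured library and 231 in the control library (ratio 4.98, 4.33 to 5.74), Hbegf 534 and 65 (6.61, 5.10 to 8.69), and Foxq1 247 and 48 (4.14, 3.03 to 5.76). The remaining 4 genes stayed inside 1.5-fold. Tgfb2 had a ratio of 1.45 (1.19 to 1.77), Cdkn1a 1.34 (1.29 to 1.40), Tgm2 1.16 (1.09 to 1.23) and Tgfb1 0.723 (0.692 to 0.755). Fewer cells of a class and less RNA per cell cannot be told apart in these sums, so the classes are taken one by one below.

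**Figure D1:**
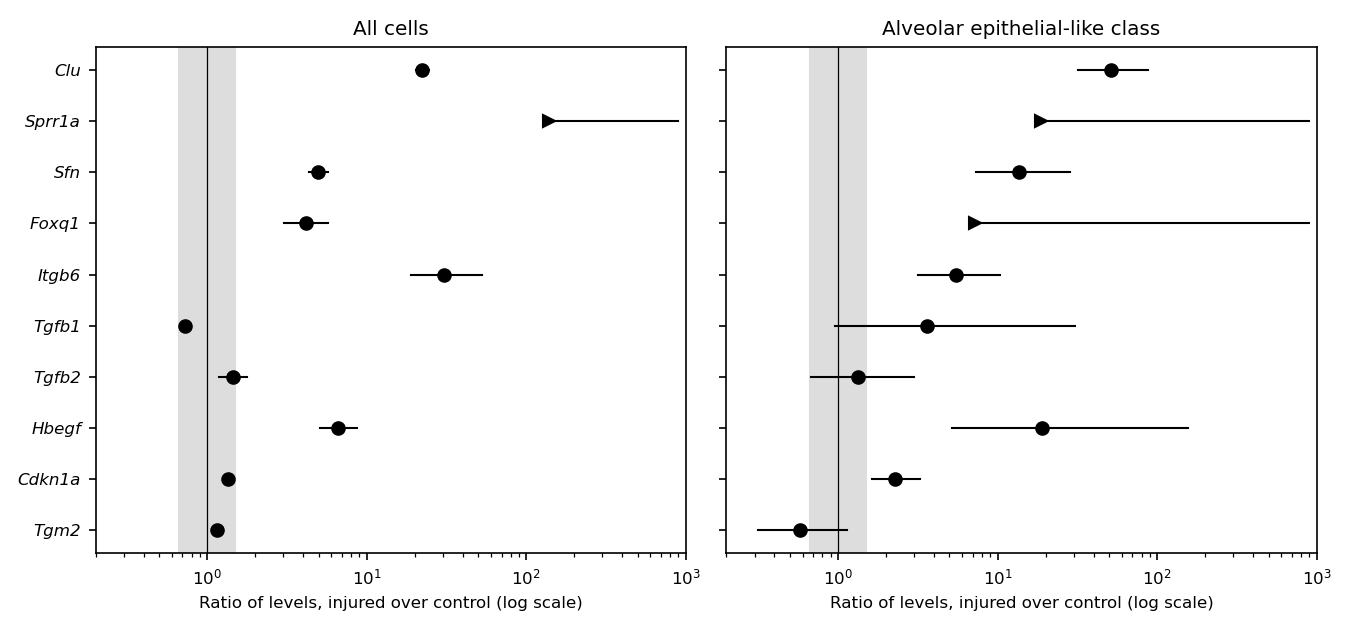
Ratio of the CPM level of each gene, injured over control library, on a log axis, over all cells (left) and in alveolar epithelial-like cells (right). Points are ratios with exact 95% counting intervals, arrowheads are lower bounds for genes with 0 control counts, and the grey band spans a 1.5-fold difference either way; Clu stands at 22.3 over all cells and 51.3 in the alveolar class.

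The classes that held most counts differed between the libraries for some of the genes and not for others. Alveolar epithelial-like cells numbered 102 of 2302 in the injured library and 83 of 2298 in the control library. They held 1323560 of 19864574 UMIs in the injured library and 149041 of 15981354 in the control library. Of the Clu counts they held 68.2% in the injured library and 4.16% in the control library. A share of counts moves with the UMIs of a class, and the part of this was not tested. Mesothelial-like cells held 18.6% and 36.2% of Clu, and endothelial-like cells 1.56% and 40.6%. Most Clu of the injured library thus lay in 1 epithelial class, and most Clu of the control library in mesothelial- and endothelial-like cells.
Itgb6 was the most epithelial of the 10, with 97.5% of its injured-library counts and 76.5% of its control-library counts in alveolar epithelial-like cells. Sprr1a had 96.5% of its counts there, Sfn 84.4%, Foxq1 78.1% and Hbegf 62.9% in the injured library. In the control library the leading class was another one for 3 of these genes: B cell-like cells held 51.1% of Sfn, secretory-like cells 35.4% of Foxq1 and endothelial-like cells 63.1% of Hbegf.
The TGF-beta ligands, the transglutaminase and p21 were spread more widely. Tgfb1 had its largest share in alveolar macrophage-like cells, 43.4% of its counts in the injured library and 53.1% in the control library. The same class held 53.6% and 65.5% of Tgm2. It also held 6722702 of 19864574 UMIs in the injured library and 5906526 of 15981354 in the control library. By level, Tgfb1 stood there at 253 and 391 CPM, beside 197 and 272 CPM over all cells. Tgm2 stood there at 212 and 205 CPM, beside 329 and 154 CPM in endothelial-like cells. Tgfb2 was held by mesothelial-like (44.8%) and alveolar epithelial-like cells (37.1%) in the injured library and by alveolar macrophage-like cells (64.8%) in the control library. Neutrophil-like cells held 23.0% of Cdkn1a in the injured library and 1.04% in the control library, and alveolar macrophage-like cells 17.0% and 55.6%. These were its leading classes, neutrophil-like cells in the injured library and alveolar macrophage-like cells in the control library.

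**Figure D2:**
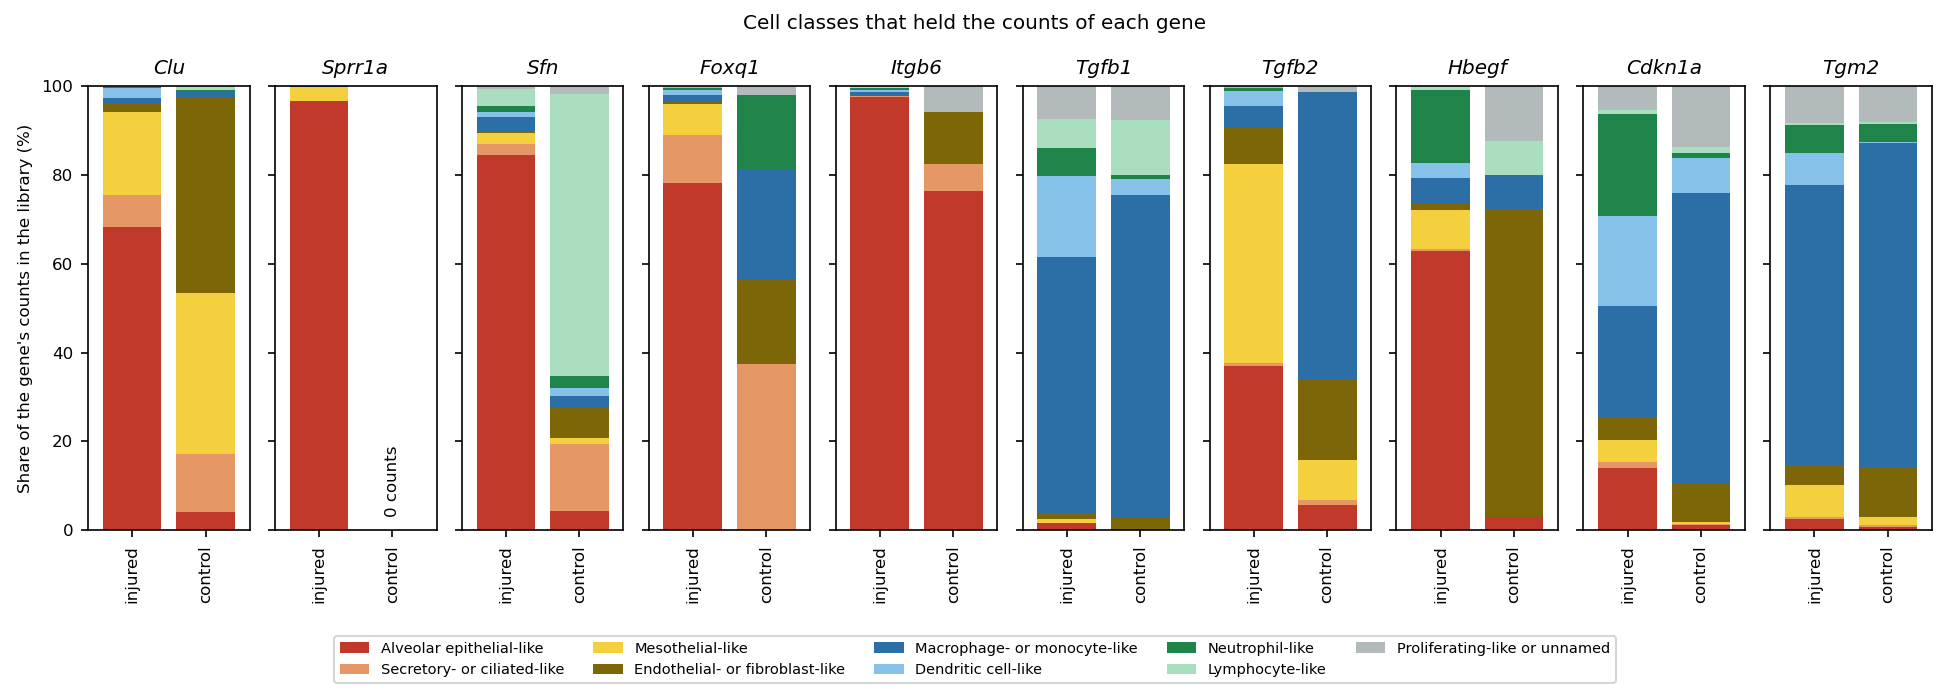
Share of the counts of each gene (vertical axis, percent of its counts in that library) by group of cell classes (colours), with the injured library left of the control library. Red alveolar epithelial-like bars fill most of the injured column of Clu, Sprr1a, Sfn, Foxq1, Itgb6 and Hbegf; Sprr1a had 0 counts in the control library.

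Alveolar epithelial-like cells held most counts of Clu, Sprr1a, Sfn, Foxq1, Itgb6 and Hbegf in the injured library. The class had 1323560 UMIs in the injured library and 149041 in the control library, with medians of 8136 and 1218 UMIs a cell. It merges an AT1-like cluster, which held 83 of the injured cells and 20 of the control cells, and an AT2-like cluster with 19 injured and 63 control cells, so different clusters make up most of it in each library. The summed AT2 markers stood at 11050 CPM in the injured library and 37500 CPM in the control library, the AT1 markers at 14500 and 14499 CPM, and the transitional markers (all 10 detected in both) at 7564 and 2704 CPM. Erythroid markers stood at 41.6 and 10708 CPM. Depth, cluster makeup and these markers move with every ratio of the class, and their part in it was not tested.
In this class 8 of 10 genes were at least 1.5-fold higher in the injured library and 1 lower, beside 42.2% and 13.2% of the 9429 genes tested there. The median log2 ratio of the 10 was 2.65 with the genes at 0 placed at their bound, and that of all tested genes 0.37. Other scalings shift every log2 ratio of the class by -0.35 (median-of-ratios size factors) or -0.32 (TMM), and the counts of 8 and 1 were the same after either shift.
Clu had 7739 counts in the injured library and 17 in the control library, or 5847 CPM (5718 to 5979) and 114 CPM (66.4 to 183), a ratio of 51.3 (32.0 to 88.0). One control cell gave 10 of the 17 control counts, and without the top cell of each library the log2 ratio was 6.57 in place of 5.68.
Of the cornified and epithelial genes, Sprr1a had 502 counts in the injured library and 0 in the control library, at least 18.8-fold higher. Sfn had 1206 and 10 counts (911 and 67.1 CPM), a ratio of 13.6 (7.36 to 28.4). Foxq1 had 193 and 0 counts, at least 7.24-fold higher.
On the TGF-beta side, the integrin subunit Itgb6 had 630 counts in the injured library and 13 in the control library, a ratio of 5.46 (3.17 to 10.3). The ligand genes themselves had few counts: Tgfb1 had 64 and 2, a ratio of 3.60 whose interval of 0.958 to 30.4 reaches below 1, and Tgfb2 106 and 9, a ratio of 1.33 (0.673 to 2.98). Tgm2, with 67 and 13 counts, was the 1 gene called lower, at a ratio of 0.580 (0.317 to 1.15).
Hbegf, whose gene lies on chromosome 18, had 336 counts in the injured library and 2 in the control library, a ratio of 18.9 (5.20 to 157). Cdkn1a had 769 and 38 counts, a ratio of 2.28 (1.65 to 3.25); 207 of the injured counts and 25 of the control counts came from 1 cell each.
Single cells weighed on several of these values. Without the top cell of each library Cdkn1a stood at 449 CPM in the injured library and 105 CPM in the control library, Itgb6 at 471 and 40.5 CPM and Tgfb2 at 70.8 and 14.2 CPM, which takes Tgfb2 past 1.5-fold. Tgm2 stood at 46.8 and 63.1 CPM without them, inside 1.5-fold.

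Within the AT1-like cluster alone, 83 injured cells (1274635 UMIs) against 20 control cells (61645 UMIs), 7 genes were higher and 2 lower, beside 18.2% and 23.3% of 9265 genes tested. Clu kept a ratio of 24.9 (15.1 to 44.5) with 7717 and 15 counts (6054 and 243 CPM). Sfn stood at 14.5 (5.64 to 53.2), Hbegf at 8.12 (2.23 to 67.4) and Itgb6 at 2.34 (1.36 to 4.42). Sprr1a was at least 8.09-fold and Foxq1 at least 3.11-fold higher. These 6 epithelial, adhesion and ligand genes were thus higher also where the AT2-like cells were left out.
Cdkn1a did not differ 1.5-fold in this cluster, at 594 CPM in the injured library and 568 CPM in the control library (ratio 1.05, 0.745 to 1.51), with 207 of 757 and 25 of 35 counts in 1 cell each. Tgfb2 stood at a ratio of 0.570 (0.289 to 1.3) and Tgm2 at 0.270 (0.145 to 0.549) in it, where the merged class gave 1.33 and 0.580; the Tgfb2 interval spans 1 and 7 of its 9 control counts lay in 1 cell. Tgfb1, the remaining higher gene, had 63 and 1 counts and a ratio of 3.05 (0.527 to 122).
Leaving out the top cell of each library, a setting chosen after seeing the data, changed several of these values. Cdkn1a then stood at 457 CPM in the injured library and 278 CPM in the control library, past 1.5-fold higher, and Tgfb2 at 73.6 and 37.5 CPM, higher in place of lower. Clu stood at 5579 and 139 CPM, Itgb6 at 489 and 139 CPM, Sfn at 844 and 18.8 CPM and Hbegf at 238 and 16.9 CPM, all still higher. Tgm2 stood at 48.6 and 145 CPM, still lower.
When the epithelial cells were clustered by themselves, 26 of the 83 injured and 12 of the 20 control cells of the AT1-like cluster fell in a ciliated-like sub-cluster with a median of 1143.5 UMIs, and 56 and 8 in an unnamed sub-cluster with a median of 17021 UMIs. Summed ciliated markers in the AT1-like cluster stood at 35.3 CPM in the injured library and 779 CPM in the control library, and their part in the ratios was not tested. In the unnamed sub-cluster (57 injured and 8 control cells, under 20 and so with no ratio) Clu stood at 6160 CPM in the injured library and 309 CPM in the control library, and Tgm2 at 49.7 CPM (62 counts) and 66.3 CPM (3 counts, 13.7 to 194).
The cluster is named by Ager, Aqp5 and other AT1 markers, but 8 AT2 and 7 transitional markers also stood 3-fold above the other cells. Its summed AT1 markers were 14966 CPM in the injured library and 32898 CPM in the control library, its AT2 markers 9549 and 1200 CPM, and its transitional markers 7754 and 4672 CPM. Ager itself had 5797 and 742 counts, Sftpc 5497 and 7, Krt8 2627 and 53. Immune and endothelial genes were near 0, with 2 and 0 counts of Ptprc (CD45) and 5 and 1 of Pecam1 (CD31). Msln, a mesothelial marker, had 471 and 3 counts, while the mesothelial genes Upk3b and Wt1 had 3 and 0 counts in the injured cells and 0 and 0 in the control cells. In the AT2-like cluster Clu had 22 counts in 19 injured cells (450 CPM, 282 to 681) and 2 counts in 63 control cells (22.9 CPM, 2.77 to 82.7); under 20 cells in a library no ratio is given.

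Read per cell at equal depth, Clu was a gene of most alveolar epithelial-like cells of the injured library. After each cell was thinned to 1000 UMIs, 60 of 76 injured cells (78.9%, exact binomial interval 68.1 to 87.5%) and 0 of 52 control cells had a Clu UMI. A count of 0 allows a share of up to 5.77% at that depth only (3 cells of 52), since before thinning 4 of 10 AT1-like and 1 of 42 AT2-like control cells among these 52 had one. Among the 76 injured cells, 61 of 65 AT1-like and 6 of 11 AT2-like cells had one before thinning. The 76 and 52 cells thus differ in cluster makeup, and its part in the contrast was not tested. Before thinning the shares were 74 of 102 cells (72.5%) and 6 of 83 (7.23%). In B cell-like cells, which are not known to make clusterin, the thinned shares were 0 of 58 and 0 of 314 (medians 3381.5 and 4485 UMIs). Thinning left out 26 injured and 31 control alveolar cells with fewer UMIs. Itgb6 was found in 29 of 76 and 3 of 52 thinned cells, Sfn in 23 of 76 and 4 of 52, and Cdkn1a in 27 of 76 and 5 of 52.

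**Figure D3:**
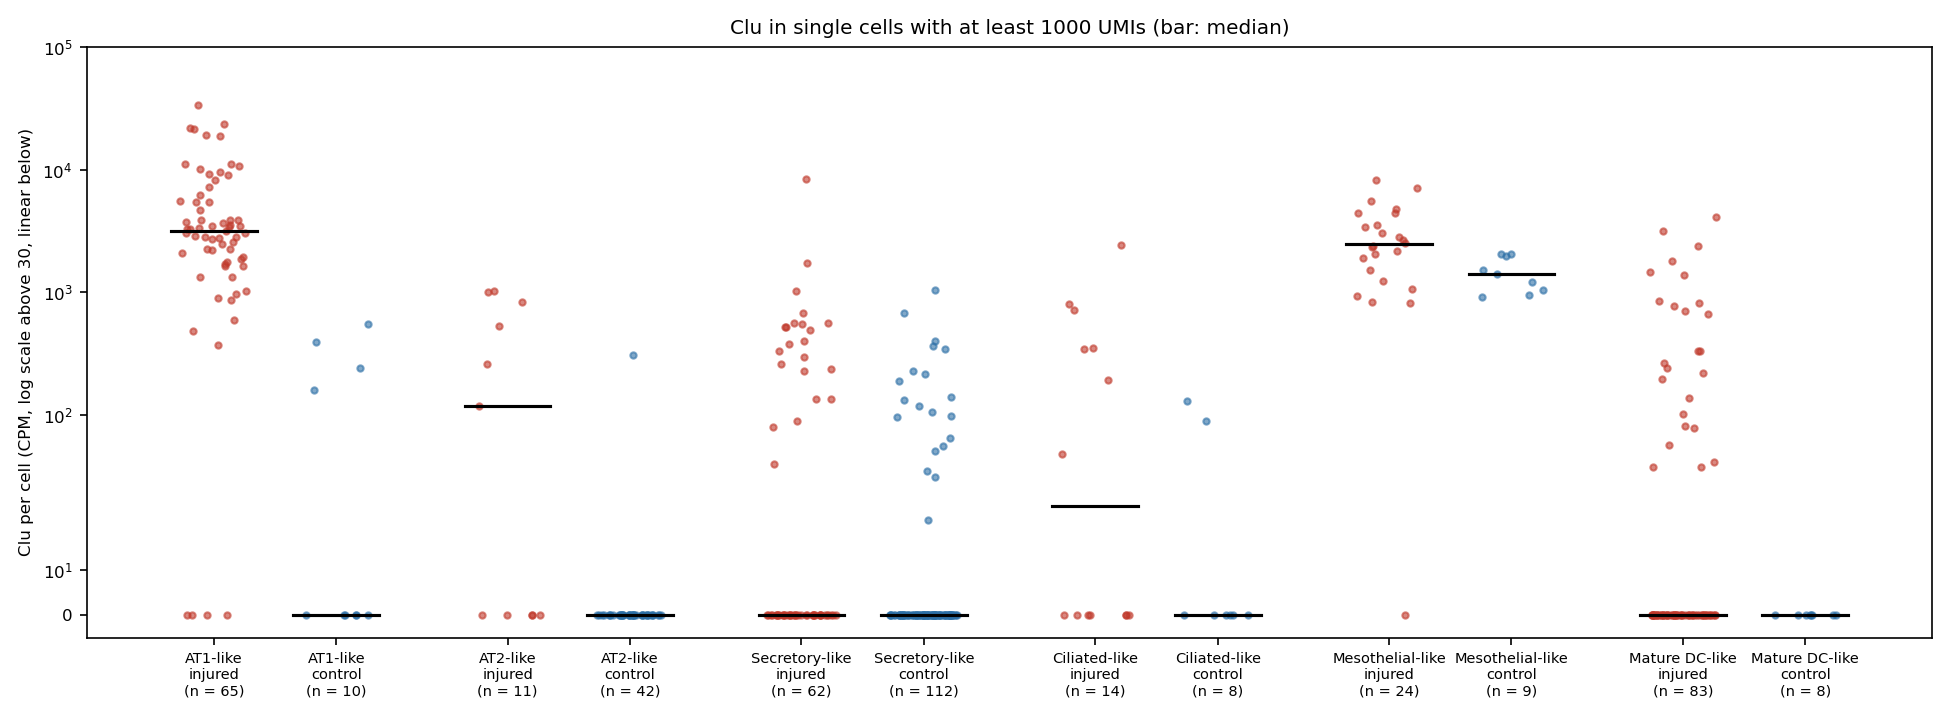
Clu in single cells with at least 1000 UMIs (vertical axis in CPM per cell, logarithmic above 30 and linear below), for 6 clusters with the injured library left of the control library; bars are medians and n counts the cells plotted. In the AT1-like cluster the injured cells reach 33782 CPM with a median of 3134 CPM, and 4 of 10 control cells have any Clu UMI, while mesothelial-like cells of both libraries lie between 0 and 8235 CPM with medians of 2453 and 1399 CPM.

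The 52 injured cells of the AT1-like cluster with at least 5000 UMIs show how the 10 genes combine. Clu was found in 51 of the 52, Itgb6 in 50, Sfn in 49, Hbegf and Cdkn1a in 40 each, Foxq1 in 35, Tgfb2 in 32, Tgfb1 and Tgm2 in 27 each and Sprr1a in 16. At least 8 of the 10 genes were found in 23 cells and all 10 in 3 cells; the fewest found in a cell was 3. Clu ranged from 0 to 23454 CPM with a median of 3320 CPM, and 5 cells held 42.8% of its counts in these cells.
Sprr1a was the most uneven gene, with 69.9% of its counts in 5 cells and a highest level of 9185 CPM. Itgb6 was the most even, with 24.0% in 5 cells and a median of 479 CPM. The single cell without a Clu UMI had 10210 UMIs, Sprr1a at 4016 CPM, Sfn at 1273 CPM, Itgb6 at 0 CPM and Ager at 98.0 CPM.
Spearman correlations across these 52 cells of 1 library are descriptions, since the cells share a library and differ in depth. Sfn went with the summed transitional markers (0.67) and against the AT1 markers (-0.61), and with Cdkn1a (0.44) and Foxq1 (0.37). Clu went against Ager (-0.37) and Hopx (-0.33), genes of mature AT1 cells, and weakly with Krt8 (0.27) and depth (0.31). Between Clu and the other 9 genes the values lay between -0.10 (Tgfb2) and 0.25 (Hbegf). Foxq1 also went against Ager (-0.39), whereas Itgb6 did not follow it (-0.03). Some of these cells carried AT2 transcripts: Sftpc reached 70284 CPM in a cell with 21325 CPM of Clu, and its median was 247 CPM.

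**Figure D4:**
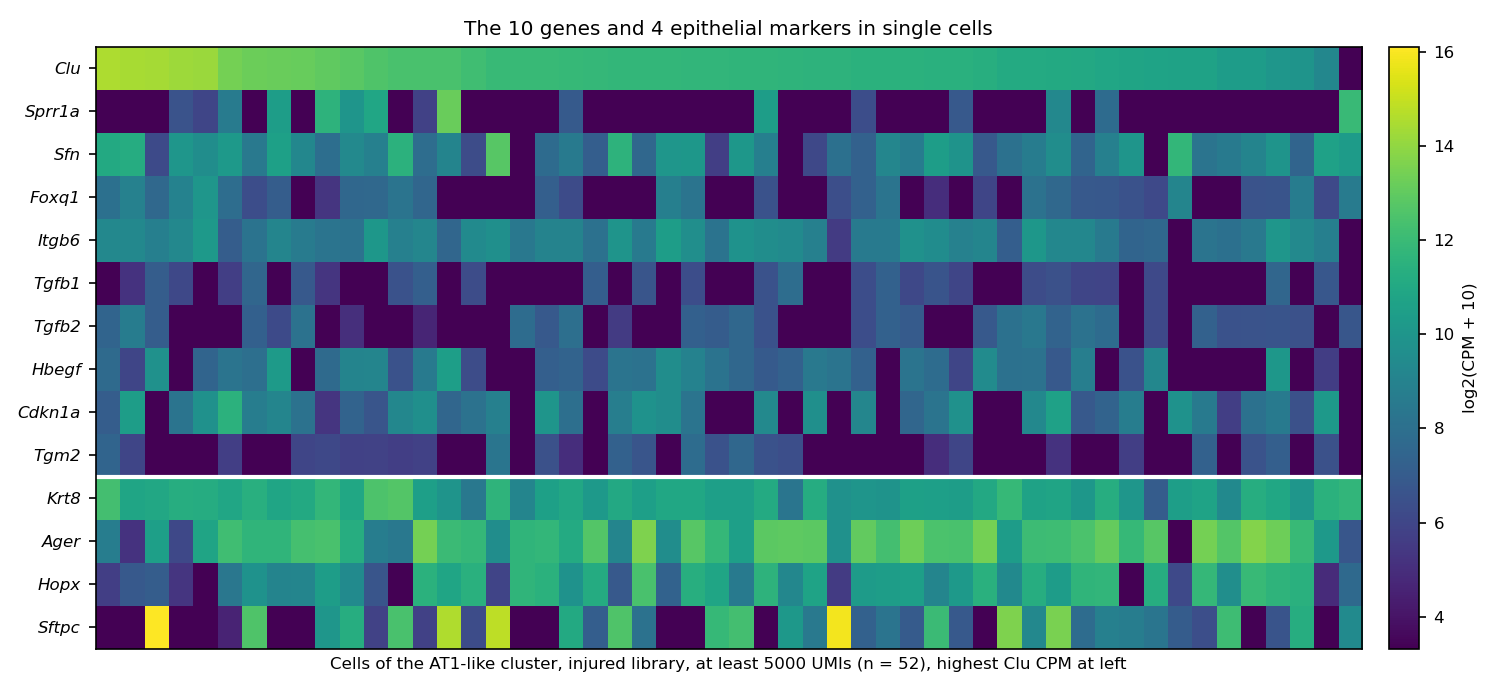
Levels (colour, log2 of CPM + 10) of the 10 genes and 4 epithelial markers in the 52 injured-library cells of the AT1-like cluster with at least 5000 UMIs, 1 column a cell, ordered by Clu from left to right. Itgb6 and Sfn are found along the whole row, Sprr1a in 16 scattered cells, and Ager is low in several of the cells at the left, where Clu is highest.

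Mesothelial-like cells, the lining of the lung surface, held the next largest share of Clu counts in both libraries. They came after alveolar epithelial-like cells in the injured library and after endothelial-like cells in the control library. Clu stood at 2584 CPM (2115 counts, 24 cells) in the injured library and 1396 CPM (148 counts, 9 cells) in the control library, found in 23 of 24 and 9 of 9 cells. With 9 control cells no ratio is given. Itgb6 had 0 counts in both, against 629 in the AT1-like cluster of the injured library.
Tgfb2 had 156 CPM in the injured library and 132 CPM in the control library in these cells, and Tgm2 235 and 292 CPM, and the intervals of each pair overlap. Cdkn1a had 330 CPM (292 to 372) and 123 CPM (65.3 to 210), Sfn 36 and 3 counts and Tgfb1 34 and 1. Hbegf had 47 counts in the injured library, 31 of them in 1 cell, Sprr1a 17, of which 13 in 1 cell, and Foxq1 17 over 11 cells; all 3 were at 0 in the control library, where 0 allows up to 28.3 CPM (3 counts).

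Of the airway cells, secretory- and ciliated-like cells together held 10.9% of Foxq1 counts in the injured library and 37.5% in the control library, 7.40% and 12.96% of Clu and 2.59% and 15.2% of Sfn. In secretory-like cells, 79 in the injured library (559574 UMIs) and 118 in the control library (914716 UMIs), 4 genes had enough counts, of which 3 were higher and 0 lower, beside 48.6% and 11.1% of the 4732 genes tested. Scaling shifts every log2 ratio of this class by -0.71 (size factors) or -0.67 (TMM).
Clu had 761 and 50 counts, a ratio of 24.9 (18.7 to 33.8), but 596 of the injured counts came from 1 cell and 27 of the control counts from another. Without those cells Clu stood at 338 CPM in the injured library and 25.9 CPM in the control library, and thinned cells with a Clu UMI numbered 10 of 62 (16.1%) and 4 of 112 (3.57%). That cell lay in a mucous sub-cluster led by Bpifa1, Reg3g and Clca1; of the mucin Muc5b the class had 385 counts in the injured library and 10 in the control library.
Foxq1 had 17 counts in each library, a ratio of 1.63 (0.784 to 3.41) that size factors put at a log2 of 0.00. Tgm2 had 7 and 4 counts (2.86, 0.727 to 13.3), and Sfn 15 and 31 (0.791, 0.397 to 1.51). Itgb6 and Sprr1a had 0 counts in both libraries. In ciliated-like cells (17 injured, 13 control) Clu had 79 and 3 counts, Cdkn1a 67 and 7, Sfn 22 and 4 and Foxq1 10 and 1, and 45 of the 79 Clu counts lay in 1 cell.

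Ordered by Clu in the injured library, the AT1-like cluster (6054 CPM) stood above mesothelial-like (2584 CPM) and secretory-like cells (1360 CPM, of which 1 cell gave most). Endothelial-like (566 CPM, 486 to 656), ciliated-like (498 CPM, 394 to 620) and AT2-like cells (450 CPM, 282 to 681) followed with overlapping intervals, then mature dendritic cell-like (254 CPM, 222 to 290) and fibroblast-like cells (231 CPM, 162 to 320), also overlapping. In the control library mesothelial-like cells led (1396 CPM), followed by the AT1-like cluster (243 CPM, 136 to 401) and endothelial-like cells (164 CPM, 140 to 191), whose intervals overlap.
Immune classes with at least 20 cells, other than mature dendritic cells, were far lower, for example 14.4 CPM in alveolar macrophage-like cells of the injured library and 0.847 CPM in those of the control library. At most 4 Clu counts fell on 1 such macrophage, and the thinned shares were 6 of 323 and 1 of 305 cells. Neutrophil-like (12.3 CPM), T cell or ILC2-like (9.65 CPM), cDC2-like (12.8 CPM) and C1q macrophage-like cells (18.9 CPM) had like levels in the injured library. Free RNA can give low levels to all classes of a library, and its part in these levels was not tested. The mature dendritic cell-like class differed, with 228 Clu counts in 25 of 98 injured cells (48 in the top cell) and 0 in 9 control cells.

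**Figure D5:**
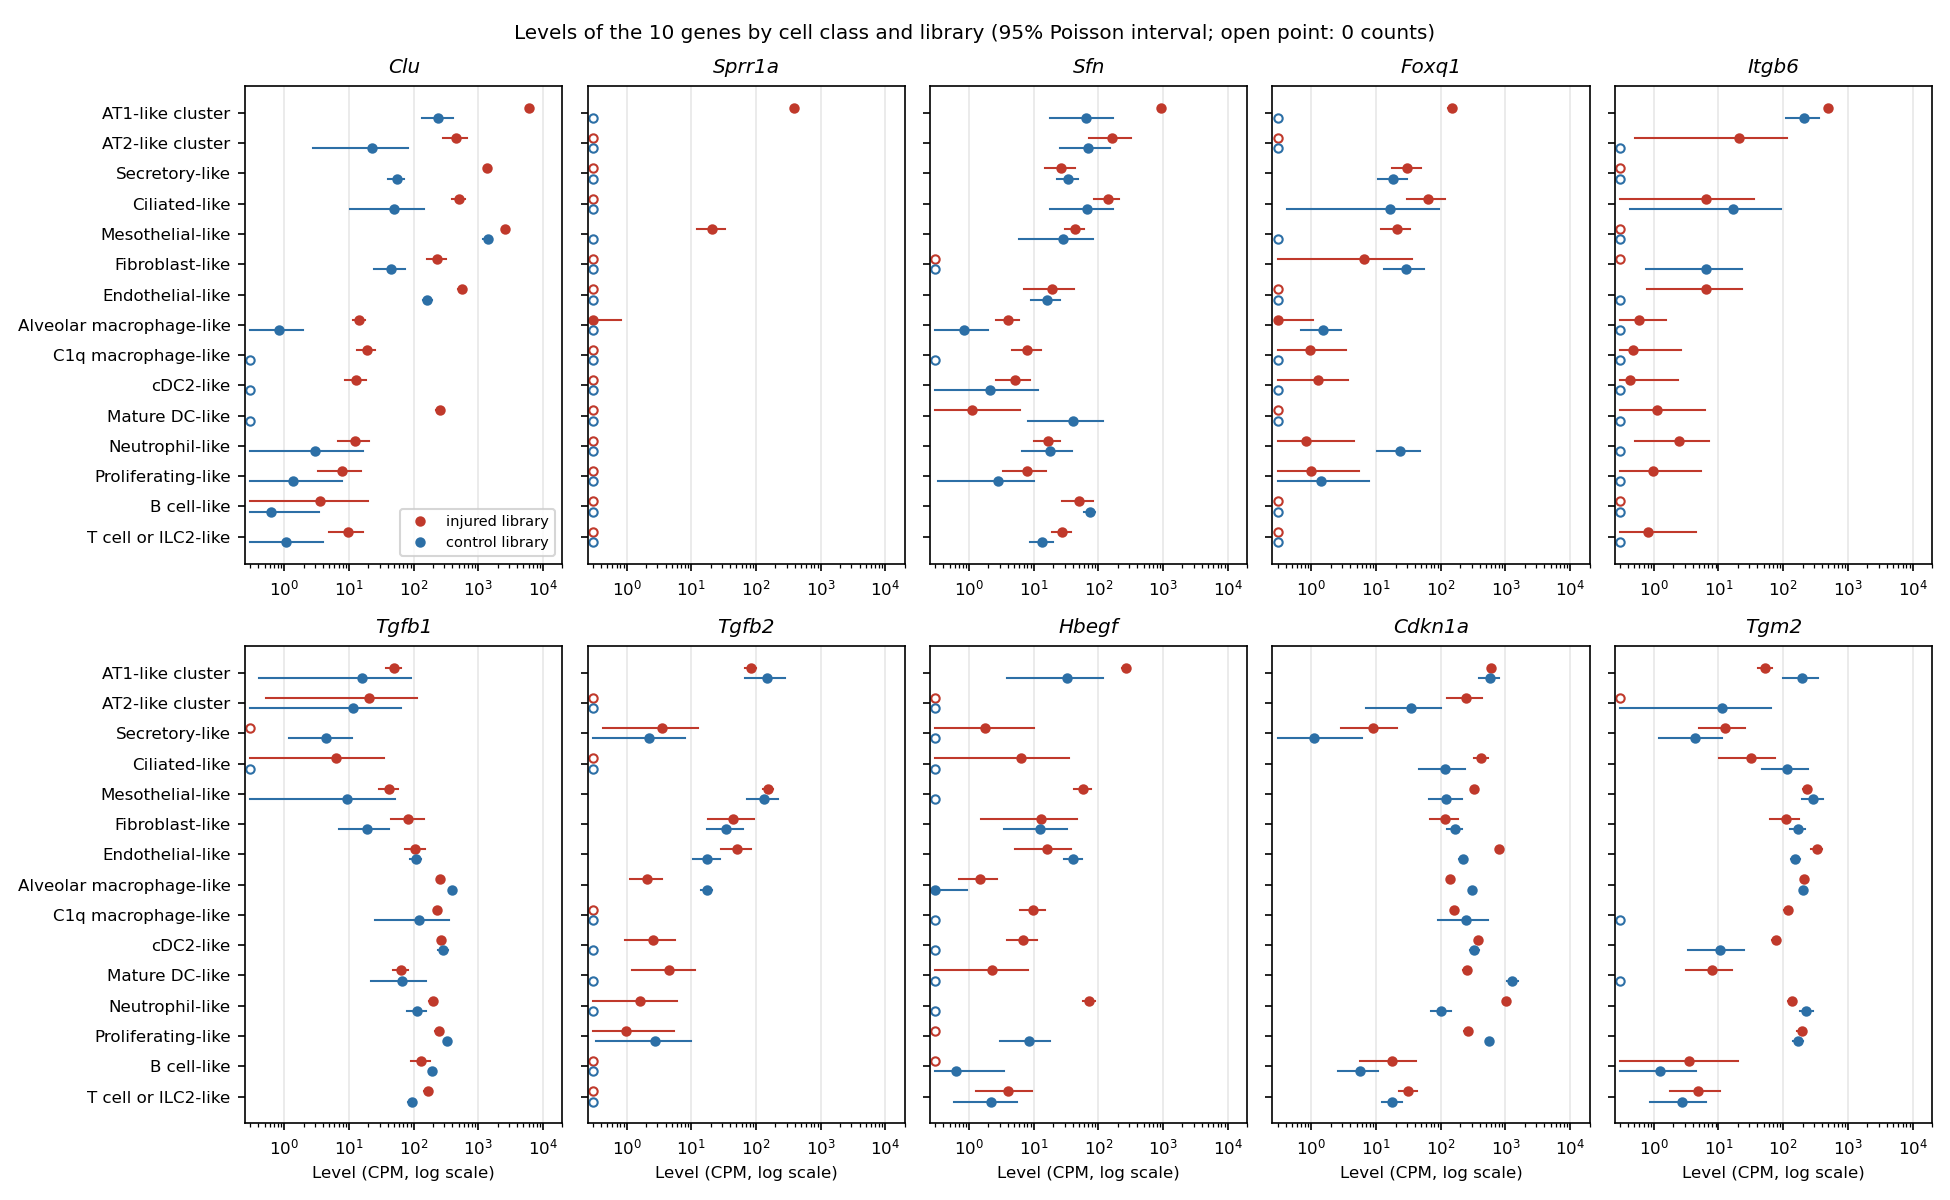
Level of each gene (horizontal axis, CPM on a log scale) in 15 clusters or classes, with the injured library (red) above the control library (blue) in each row; lines are exact Poisson 95% intervals and open points at the left edge stand for 0 counts. Clu, Sprr1a, Sfn, Foxq1, Itgb6 and Hbegf peak in the AT1-like cluster of the injured library, while Tgfb1 and Tgm2 have broad levels over the macrophage classes.

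Among classes with a ratio, Cdkn1a differed most in neutrophil-like cells. It had 1250 counts in 586 injured cells and 34 in 124 control cells (1026 and 101 CPM), a ratio of 10.1 (7.21 to 14.7). Of the 6 genes with enough counts in that class 4 were higher and 1 lower, beside 51.2% and 10.3% of 7763 genes tested. The class is a cluster of 426 injured and 9 control cells and a cluster of 160 and 115 cells. Within the cluster of 160 and 115, which both libraries fill, 1 of 4 genes with enough counts was higher and 2 were lower. Of all genes tested there, 27.4% were higher and 16.6% lower. The 1 higher gene was Cdkn1a, at 113 and 32 counts (2.88, 1.93 to 4.41). Hbegf was found in 41 injured neutrophil-like cells (88 counts) and had 0 counts in the control cells, at least 8.08-fold higher, and 86 of the 88 counts lay in the cluster with 9 control cells. Tgm2 was lower, with 168 and 77 counts (0.601, 0.456 to 0.798).
Alveolar macrophage-like cells, 323 in the injured library and 305 in the control library, separated into 1 cluster for each library. Of 8 genes with enough counts 3 were higher and 4 lower, beside 15.1% and 21.5% of 11514 genes tested. Cdkn1a was lower, at 138 and 306 CPM (0.449, 0.415 to 0.487), as was Tgfb1 at 253 and 391 CPM (0.646, 0.606 to 0.688). Tgfb2 had 14 and 103 counts, a ratio of 0.119 (0.0631 to 0.210), and 42 control cells had at least 1 count. Tgm2 had nearly the same level in both, 212 and 205 CPM (1.03, 0.957 to 1.12). The 3 genes called higher, Clu, Sfn and Hbegf, had 97, 27 and 10 counts in the injured library and 5, 5 and 1 in the control library.
In endothelial-like cells, 91 injured and 393 control, 4 of 7 genes were higher and 1 lower, beside 22% and 20.9% of 9403 tested. Cdkn1a had 806 and 222 CPM (3.63, 3.02 to 4.36), Clu 566 and 164 CPM (3.45, 2.78 to 4.29) and Tgm2 329 and 154 CPM (2.14, 1.65 to 2.76). Tgfb2 had 16 and 18 counts, 15 of the injured ones in 1 cell. Hbegf was lower, with 5 and 41 counts (0.395, 0.122 to 0.998). In fibroblast-like cells (40 injured, 79 control) 2 of 6 genes were higher and 2 lower, beside 23.6% and 31.2% of 6705 tested, with Clu at 36 and 14 counts (5.20, 2.74 to 10.4).
Of the lymphocytes and dendritic cells, T cell or ILC2-like cells had 5 of 5 genes higher and 0 lower, beside 40.3% and 6.45% of 10040 genes tested, led by Clu with 12 and 2 counts (8.88, 1.98 to 81.7). In cDC2-like cells 3 of 6 were higher and 0 lower, beside 30.1% and 15.2% of 9978, and Tgm2 led with 184 and 5 counts (7.47, 3.14 to 23.3). B cell-like cells had 1 of 3 genes higher (Cdkn1a, 5 and 9 counts) and 0 lower, beside 23.1% and 20.1% of 8763. Sfn there had 14 counts in 58 injured cells and 118 in 318 control cells (49.5 and 73.8 CPM, ratio 0.670, 0.356 to 1.17), found in 12 and 66 cells, and 22 of the control counts lay in 1 cell.

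In all, 9 gene lists around these genes were counted whole in the alveolar epithelial-like class, beside 42.2% higher, 13.2% lower and a median log2 ratio of 0.37 over all genes tested there; each list's median stays above 0 after either scaling shift. Of the TGF-beta activation and signalling genes 12 of 17 measured were higher and 0 lower, with a median of 1.10. Thbs1, an activator of latent TGF-beta, had 222 counts in the injured library and 1 in the control library (25, 4.44 to 992), and Itgav, the partner of Itgb6, 298 and 5 (6.71, 2.84 to 20.8). The receptor gene Tgfbr1 had 83 and 1 counts and the membrane protease gene Mmp14 326 and 5.
Of the TGF-beta response genes 12 of 16 were higher and 2 lower (median 1.5). Fn1, encoding fibronectin, had 617 and 1 counts (69.5, 12.4 to 2749), and the feedback inhibitor genes Smad7 and Pmepa1 had 122 and 1, and 416 and 9. Id3 and Bambi were the 2 lower ones, named after their values were seen, with 52 and 15 counts and 8 and 4 counts.
The p53 response list had 8 of 16 higher and 2 lower and a median of 0.59, near the 42.2% and 13.2% of all genes. Phlda3 had 89 and 1 counts (10.0, 1.75 to 400) and Zmat3 59 and 1, while Ei24 and Rrm2b were lower, with 124 and 28 and with 18 and 5 counts, and were named after their values were seen.
EGF receptor ligands, receptors and sheddases had 8 of 12 higher and 1 lower (median 1.57). The ligand gene Areg, encoding amphiregulin, had 253 and 1 counts (28.5, 5.07 to 1130), and Adam10, a sheddase, 270 and 3 (10.1, 3.43 to 49.5). Erbb2 had 96 and 2 counts and Erbb3 226 and 6. The 1 lower gene was Egfr, with 10 and 2 counts.
The transitional epithelial list had 19 of 20 measured genes higher and 0 lower (median 1.95). It includes the tight junction gene Cldn4 with 824 and 5 counts (18.6, 7.92 to 57.3) and the prostaglandin synthase gene Ptges with 126 and 2. Of 24 cornified envelope and squamous genes only 7 had enough counts, and all 7 were higher (median 1.62). S100a14 had 375 and 3 counts (14.1, 4.78 to 68.6), and the epidermal transglutaminase gene Tgm1 82 and 0, at least 3.08-fold higher; Jup and Dsp, which encode desmosome proteins, had 395 and 9 and 153 and 5 counts.
YAP and TEAD response genes had 8 of 15 higher and 1 lower (median 0.64), also near those shares, with Ajuba at 119 and 1 counts and Ccn2 at 184 and 6 (3.45, 1.56 to 9.53). The 14-3-3 family, to which Sfn belongs, had 5 of 6 higher and 0 lower (median 0.88), with Ywhag at 124 and 2 counts and the abundant Ywhaz at 611 and 31 (2.22, 1.55 to 3.30). Among clusterin receptors and extracellular chaperones 6 of 8 were higher and 1 lower (median 0.99). Haptoglobin (Hp) had 1587 and 30 counts (5.96, 4.16 to 8.86) and Calr 789 and 28 (3.17, 2.18 to 4.81). The apolipoprotein gene Apoe was lower at 77 and 27 (0.321, 0.205 to 0.518).
In the AT1-like cluster alone, where 18.2% of genes were higher and 23.3% lower with a median of 0.00, the lists stood differently. The transitional list had 12 of 20 higher and 0 lower (median 0.95), EGF receptor genes 6 of 11 and 1 (0.64), the TGF-beta response 7 of 15 and 1 (0.56) and TGF-beta activation 6 of 17 and 0 (0.00). Cornified envelope genes had 2 of 7 higher and 0 lower (0.37), clusterin receptors and chaperones 3 of 8 and 0 (0.07) and the 14-3-3 family 2 of 6 and 1 (0.16). The p53 response had 3 of 16 higher and 4 lower, and YAP and TEAD response 1 of 15 higher and 4 lower, both with medians of 0.00. All 9 lists thus had fewer higher genes in this cluster than in the merged class. This cluster has fewer control UMIs than the merged class, which raises the bound for a gene with 0 control counts. Such a gene has a log2 ratio of 0.00 where its injured level lies under the bound, so a median of 0.00 need not mean equal levels. The part of the bound in the fewer higher genes was not tested.
Over all cells the same lists, beside 22% higher, 16.9% lower and a median of 0.07 over all genes tested, had their highest medians for cornified envelope genes (2.29, 5 of 8 higher and 1 lower), EGF receptor genes (1.64, 12 of 14 higher and 0 lower) and the transitional list (0.91, 14 of 23 higher and 3 lower). The p53 response had 2 of 20 higher and 3 lower and the TGF-beta response 6 of 17 higher and 5 lower. TGF-beta activation had 10 of 22 higher and 3 lower, YAP and TEAD response 6 of 15 and 1, clusterin receptors and chaperones 3 of 10 and 0, and the 14-3-3 family 0 of 6 and 0.

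The genes whose pattern was most like that of Clu were ranked by Pearson correlation of log2(CPM + 10) over 27 sums of a class in a library with at least 20 cells, among 13067 genes. The points share 2 libraries and differ in depth, and no p is given. The 10 nearest genes were Lama5 (0.87), 2200002D01Rik (0.87), Nectin2 (0.87), Proser2 (0.86), Samd4 (0.86), Parva (0.85), Cgnl1 (0.85), Eva1c (0.84), AI661453 (0.83) and Wfdc1 (0.83). Lama5 encodes a laminin chain of basement membranes, Nectin2 an adhesion molecule, Parva a protein that links integrins to actin, and Cgnl1 a junction protein. Lama5 had 241 CPM in the AT1-like cluster of the injured library and 114 CPM in that of the control library, 156 CPM in mesothelial-like cells of the injured library, and 16.1 and 0 CPM in secretory-like cells.
Within the set Tgfb2 came nearest to Clu, at place 75 (0.76), followed by Hbegf at 318 (0.67), Foxq1 at 492 (0.63), Sprr1a at 552 (0.61), Itgb6 at 939 (0.54) and Sfn at 1071 (0.52). Cdkn1a stood at place 3471 (0.24) and Tgm2 at 4089 (0.19). Tgfb1 stood near the other end, at place 12902 (-0.61), with 522 CPM in classical monocyte-like cells of the control library, where Clu had 1 count.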

How the data were processed

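Single-cell 3′ libraries of digested mouse lung were analysed, 1 titled injured and 1 titled control. The deposited files hold whole-number UMI counts per gene and barcode with no normalization, and Cell Ranger 4.0.0 wrote them, per the file headers. STAR 2.7.2c, featureCounts 1.6.3 and DESeq2 (1.26.0, 1.28.1) are named in the submitters' processing notes; what they did for these libraries is not given in the sources used here. The 10 genes, the lists and the rules were chosen with earlier results of these data known.

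Kept barcodes had 500 UMIs, 200 genes and no more than 15% mitochondrial counts; 44 doublet-like cells were removed per library (the top 0.8% per 1000 cells by simulated-doublet neighbours). Counts were scaled to 10000 per cell, and 2000 variable genes, without the 10 genes, gave 30 components, a graph of 20 neighbours and 25 Leiden clusters (resolution 1) with no integration. From 32 marker lists a cluster took the name with most markers among its 10 leading genes, if that list also had the most markers, and no fewer than 3, at 3-fold the level of all other cells and in 20% of its own cells. The following choices were made after the clusters were seen: ties went to the list with most such markers, the AT1-like and AT2-like clusters were joined into an alveolar class, and T cells were joined with ILC2. Clusters that met no rule stayed unnamed. Counts were summed per class and library, and ratios need 20 cells in each library. With 1 library a group no test, p-value or SE was computed. Alternatives were other scalings, count minimums, filters, thinning depths, doublet-like cells kept, cells weighted the same and libraries clustered alone. Named are the 10 genes, up to 4 genes of each list with the largest log2 ratio in the alveolar class among those with 50 counts, and the 10 genes most like Clu; 1 gene that this rule names is not reported here. The procedure was tested on simulated data. Python 3.11.15, scipy 1.17.1, leidenalg 0.10.2, R 4.3.3 and edgeR 4.0.16 (TMM factors only) were used.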

Additional observations from a re-analysis of the deposited data

How the results depend on the processing

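No paired analysis was possible because each group has 1 library, and no library could be left out. Of 234 recomputed ratios of genes called in all cells or in the alveolar or secretory class, 231 kept their direction and 226 stayed at least 1.5-fold. The settings with no count minimum or at least 50 counts change which genes are eligible and not the ratios. All 24 main ratios stayed the same there by design, and these recomputations are part of the 234. The counts of 6 higher and 0 lower over all cells, and of 8 higher in the alveolar class, moved by no more than 1.5 times under any setting tried. With each cell weighted the same, 13 single-gene ratios moved outside their main counting interval, 2 reversed and 6 stayed the same. The 2 were Tgm2 in the alveolar class, at a log2 ratio of 0.22, and Foxq1 in the secretory class, at -0.28. Sprr1a and Foxq1 in the alveolar class and Sprr1a over all cells have no such value, as their control counts are 0. Across all settings the log2 ratio of Cdkn1a over all cells ranged from 0.38 to 1.54 (main 0.43). That of Sfn in the secretory class ranged from -1.05 to 1.37 (main -0.34). Genes lower in the alveolar class numbered 0 with each cell weighted the same or with the top cell of each gene left out, and 2 in the AT1-like cluster alone (leaving out top cells and taking the AT1-like cluster alone were chosen after seeing the data). In the secretory class 1 gene was lower with size factors, with TMM or with doublet-like cells kept, and 5 were higher with no count minimum, 1 at 50 counts or more and 6 with each library clustered alone. The alveolar share of injured-library Clu counts, 68.2%, was 59.3% at a mitochondrial limit of 10%, 69.0% at 25% and 66.9% with doublet-like cells kept. Alveolar cells with a Clu UMI were 52.9% of injured cells at 500 UMIs and 91.1% with each library clustered alone; in the control library they were 11.8% at 2000 UMIs and 7.23% without thinning. With each library clustered alone the alveolar class had 56 injured and 84 control cells, where the main clustering gave 102 and 83. The secretory class then had 123 injured and 128 control cells, where the main clustering gave 79 and 118. The cause of the moves under these settings was not tested. Control counts of 0 to 38 a gene in the alveolar class limit every ratio there.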
